A study of Canis lupus familiaris with 30 samples.

Results

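The lymph nodes of 7 dogs whose lymphoma carried the immunophenotype label B-Cell were sampled before treatment and again 6 weeks into CHOP, the combination of cyclophosphamide, doxorubicin, vincristine and prednisone. These 14 libraries, of 30 in the series, were chosen by that label and paired by the animal's number, and the 7 dogs are part of the 15 dogs that the series design names. The question was which genes were higher or lower after 6 weeks of treatment in these animals. RNA came from fine needle aspirates of enlarged nodes, so each library holds lymphoma cells together with any other cells of the node. The animals were veterinary lymphoma patients of any breed, sex or age. Enrolment allowed a single earlier injection of prednisone, and no untreated dog was followed over the same interval, so treatment, time and a second aspiration of the node cannot be told apart. The comparison groups used further on are the 3 dogs labelled T-Cell and 4 dogs labelled Unknown that have both timepoints under 1 number.

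B-cell lymphoma of the dog resembles diffuse large B-cell lymphoma of people and usually arises in lymph nodes. Its cells divide rapidly and express B-cell genes such as PAX5, the transcription factor that holds B-cell identity, and CD22, a surface receptor that dampens signals from the B-cell receptor. Doxorubicin acts on topoisomerase II and cyclophosphamide cross-links DNA, while vincristine blocks the mitotic spindle and prednisone activates the glucocorticoid receptor in lymphoid cells.

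The libraries differed in depth and in scale. Total counts lay between 10047845 and 43413353 at the initial timepoint and between 6778831 and 22952193 at 6 weeks. The FPKM of all genes, where FPKM is a fragment count scaled by transcript length and library size, summed to between 769269 and 1193610 in every library except the six-week library of dog 033, where the sum was 2253170. In that dog the median gene lay 0.41 lower at 6 weeks on the log2(FPKM + 1) scale, against between 0.00 and 0.17 higher in the other 6 dogs. Changes within single dogs are therefore given relative to the dog's own median gene, whereas FPKM levels, the test across dogs and the tallies of dogs use the deposited values. Where a tally differs on the relative scale, that tally is given beside it. The shift of dog 033 therefore stays in the mean changes over dogs, their SEs and the p-values. The six-week libraries of dogs 030 and 034 were among the shallowest and listed 21297 and 21042 genes above 1 FPKM, against between 11591 and 15757 in the other 5 six-week libraries.

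Gene names could be given to 3927 of the 14411 genes with a mean above 1 FPKM over the 14 libraries. The names come from the study's own result tables, of which the leading part by p-value was at hand, so a gene with a name had been chosen partly on these libraries. Of the named genes, 57.7% had a mean change below 0, against 45.4% of the genes without a name. All counts of named genes below are therefore not independent evidence of a direction.

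The B-Cell label was compared with lineage genes. CD22 and PAX5, the 2 B-cell markers of 8 that had a name, summed to between 63.8 and 221 FPKM at the initial timepoint and were above 0 in all 14 libraries. The 7 T-cell markers that had a name, of 10, summed to between 28.7 and 94.1 FPKM in 6 of the dogs before treatment. In dog 029 they summed to 502 FPKM before treatment and 623 at 6 weeks, and its B-cell markers were the lowest of the 7 dogs, at 63.8 and 26.2. The node of dog 029 thus held T-cell transcripts far above those of the other nodes that carry the same label, and its part in the results was measured by leaving it out.

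No gene passed the test of a change shared by the 7 dogs. In limma's paired fit, 0 of 14411 genes were higher and 0 were lower at an adjusted p under 0.05, which is 0% in each direction, and the smallest adjusted p was 0.771. At an unadjusted p under 0.05 there were 341 higher genes (2.37%) and 418 lower genes (2.9%), together 759. Among the named genes these shares were 0.84% and 3.59%. The balance of directions depended on dog 033, whose six-week library was shifted downward. Without that dog, 847 of 14782 genes were higher and 244 lower at an unadjusted limma p under 0.05. The edgeR quasi-likelihood test on the counts of the 4 dogs with matching count and FPKM tables also called 0 genes in either direction, with 566 of 11886 at an unadjusted p under 0.05. The absence of calls does not show that levels stayed the same, since the median standard error of a gene's change was 0.18 on the log2 scale and the dogs differed widely. Every gene described for the 7 dogs had a limma adjusted p of 0.771 or more, and its values are given as measured.

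The size of the change between the timepoints differed from dog to dog. In dog 034, 1856 genes (12.9%) were at least 2-fold higher and 1660 (11.5%) at least 2-fold lower than the dog's median gene. Dog 037 followed with 1456 higher (10.1%) and 605 lower (4.2%). The other dogs moved less. Dog 003 had 350 genes in each direction (2.43% and 2.43%), dog 029 had 235 and 233 (1.63% and 1.62%), and dog 030 had 415 and 511 (2.88% and 3.55%). Dog 033 had 547 higher and 176 lower (3.8% and 1.22%), and dog 027 had 81 and 175 (0.562% and 1.21%). Across the 14411 genes, the changes of any pair of dogs correlated with a Pearson r between -0.23 and 0.36, the highest value being that of dogs 034 and 037. Genes are not independent replicates, and these correlations only describe how little the dogs shared. On the deposited scale, 101 genes (0.701%) were higher and 140 (0.971%) lower in all 7 dogs, and relative to each dog's median gene 206 (1.43%) and 154 (1.07%).

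**Figure D1:**
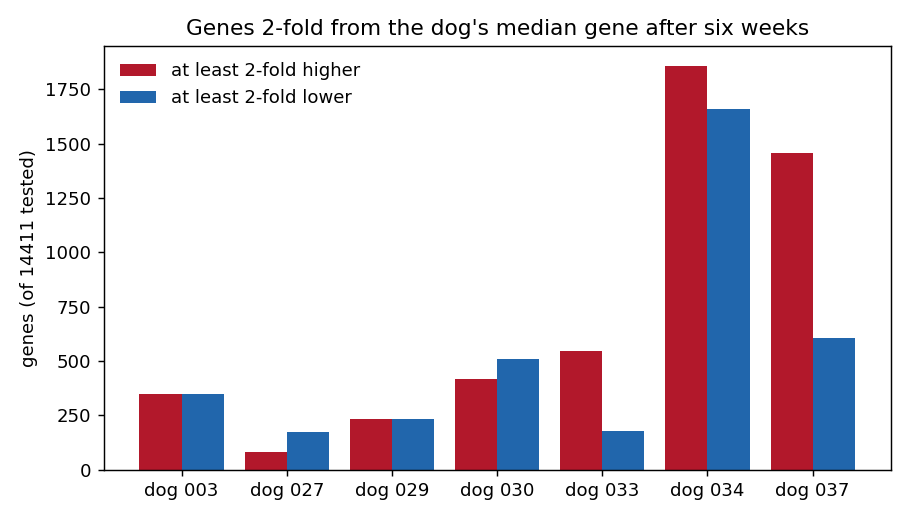
Bars give, for each of the 7 B-cell dogs, how many of the 14411 tested genes lay at least 2-fold above (red) or below (blue) the dog's median gene at 6 weeks. Dogs 034 and 037 have the tallest red bars, at 1856 and 1456 genes, and dog 027 the shortest, at 81.

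B-cell genes tended to be lower at 6 weeks. All 6 named B-cell identity genes had a mean change below 0, beside 57.7% of the named genes. The median of the 6 was -0.52 on the log2 scale, beside -0.04 for the named genes and 0.01 for all genes tested. Of the 6, 4 (66.7%) had an unadjusted limma p under 0.05, beside 3.59% of the named genes in that direction. FCRL1, an Fc receptor-like protein of B cells, ranged from 5.71 to 13.7 FPKM with a median of 8.40 before treatment and from 2.16 to 13 with a median of 4.79 at 6 weeks. Its change was -0.54 ± 0.18 (SE), lower in 6 of 7 dogs. BTK, the kinase that carries signals from the B-cell receptor, went from a median of 126 FPKM (range 41.5 to 179) to 91.0 (range 21.3 to 186), a change of -0.53 ± 0.18 that was negative in 6 dogs, and in 5 on the relative scale. The ranges before and after treatment overlapped for both genes.

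CD22 and PAX5 showed where the dogs parted. CD22 was 79.2 FPKM before and 26.6 after treatment in dog 034, 46.1 and 19 in dog 029, and 93.4 and 45.5 in dog 033. In dog 037 it went the other way, from 89.6 to 136, and PAX5 from 27.2 to 42.2. Over the 7 dogs the changes were -0.55 ± 0.24 for CD22 and -0.48 ± 0.21 for PAX5. The list's mean change was lowest in dogs 034 (-1.43) and 029 (-0.92) and lay between -0.45 and 0.07 in the others. With 1 dog left out, between 2 and 5 of the 6 genes had an unadjusted p under 0.05, with 2 when the dog was 029, 030, 033 or 034. Without dogs 029 and 033 together the count was 0, where 0.924% of all genes tested were lower at that level. In bulk RNA, fewer B cells in the aspirate and less of these transcripts per cell cannot be told apart.

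**Figure D2:**
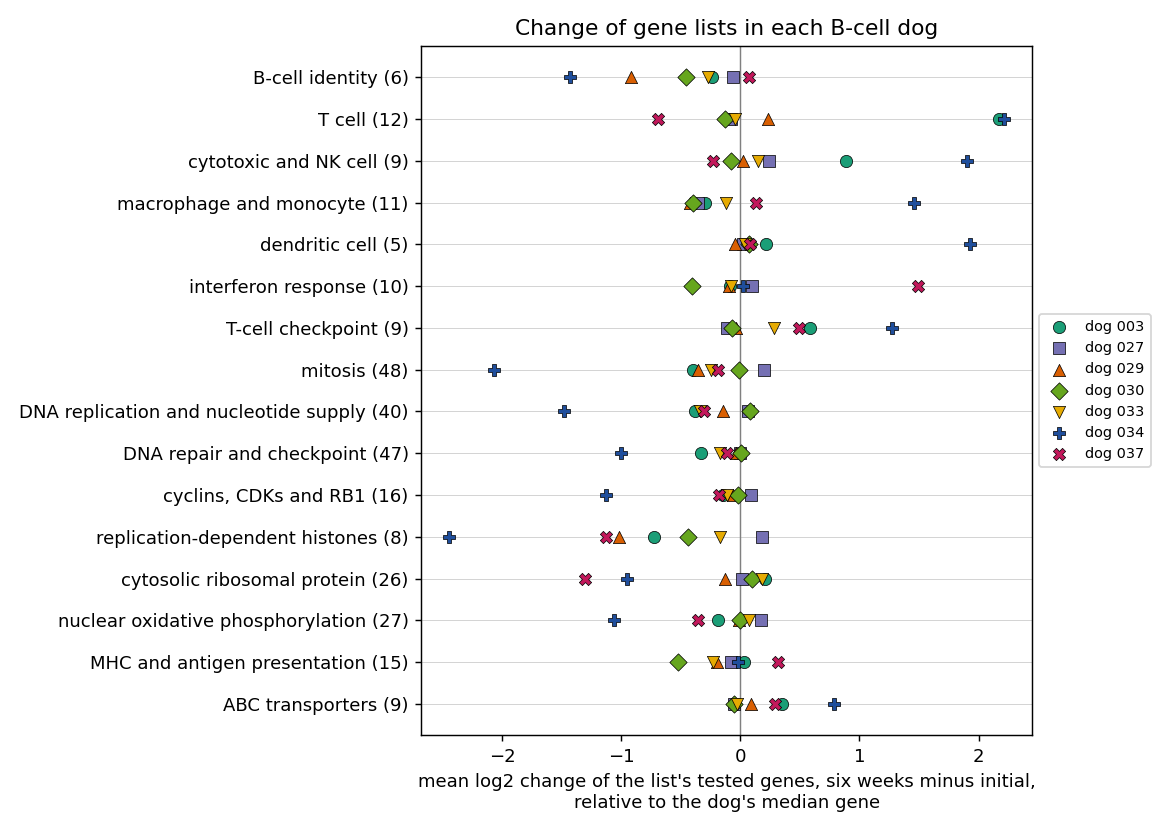
Each point is the mean log2 change of a gene list in 1 dog, 6 weeks minus initial and relative to the dog's median gene, and the number of tested genes stands in parentheses. Dog 034 lies far from the others for mitosis (-2.07) and dendritic cell genes (1.93), dog 037 for interferon response (1.49), and dogs 003 and 034 for T-cell genes (2.17 and 2.21).

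T-cell transcripts were higher at 6 weeks in dogs 003 and 034 and near their starting level in most of the rest. Of the 12 named T-cell genes, 11 were at least 2-fold higher in dog 003 and 11 in dog 034. None was in the other 5 dogs, and 3 were at least 2-fold lower in dog 037. Over all genes tested, 2.43% were that much higher in dog 003 and 12.9% in dog 034, and 4.2% that much lower in dog 037. CD3E, a chain of the T-cell receptor complex, was 1.56 FPKM before treatment and 33.4 after it in dog 003, and 27.4 and 149 in dog 034. The other nodes stood at 3.36 and 3.00 in dog 027, 178 and 245 in dog 029, 9.28 and 5.65 in dog 030, 6.42 and 3.54 in dog 033, and 16.4 and 10.1 in dog 037. Dog 029 therefore had more CD3E before treatment than any of the other 6 dogs had after it.

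The mean over dogs hid this split. All 12 T-cell genes had a mean change above 0, with a median of 0.57, and none reached an unadjusted p under 0.05. CD28, the costimulatory receptor of T cells, had a median of 1.24 FPKM (range 0.09 to 28.4) before and 2.92 (range 0.15 to 38.8) after treatment, a change of 0.77 ± 0.35. THEMIS, a protein of T-cell receptor signalling, differed by 0.71 ± 0.41. Without dog 034 the median of the list was 0.23.

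Genes of cytotoxic cells followed the same animals. GZMK, a granzyme of T and natural killer cells, went from 4.11 to 45.2 FPKM in dog 034 and from 0 to 1.45 in dog 003. Of all genes tested, 12.9% were at least 2-fold higher in dog 034, 2.43% in dog 003 and 0.562% in dog 027. Of the cytotoxic list, all 9 named genes were that much higher in dog 034, 4 in dog 003, and 1 in dog 027. That gene in dog 027 was CCL5, a chemokine that attracts T cells, which stood at 4.47 and 17.8 FPKM. IL2RB, the shared receptor chain for interleukins 2 and 15, differed by 0.54 ± 0.25 over the dogs, higher in 5 of 7 and in 6 on the relative scale.

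**Figure D3:**
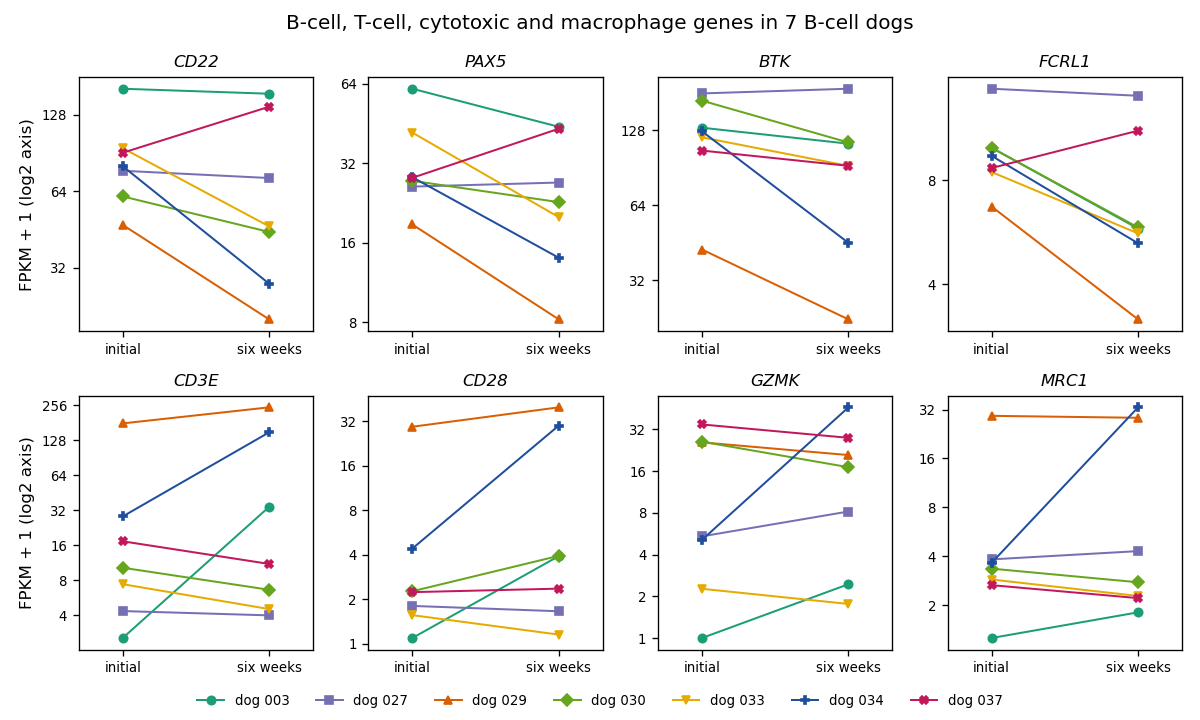
Lines join the initial and six-week FPKM + 1 of each dog on a log2 axis for 4 B-cell genes (CD22, PAX5, BTK, FCRL1), 2 T-cell genes (CD3E, CD28), GZMK and MRC1. In dog 034 the line slopes down for the B-cell genes and up for the other 4, from 27.4 to 149 FPKM for CD3E and from 2.65 to 32.0 for MRC1.

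Myeloid, dendritic and stromal transcripts were higher mainly in dog 034. There, 9 of 11 macrophage genes, 4 of 5 dendritic cell genes and 6 of 7 stromal and endothelial genes were at least 2-fold higher. Of all genes tested, 12.9% were that much higher in the same dog. MRC1, the macrophage mannose receptor, went from 2.65 to 32.0 FPKM and CCL19, a chemokine that guides T cells and dendritic cells into the node, from 1.34 to 44.9. S100A8, a protein of neutrophils and monocytes, went from 3.55 to 50.9. Dog 029 already had 28.3 FPKM of MRC1 and 34.7 of CCL19 before treatment and 27.5 and 33.8 after it. Markers of several other cell types were thus higher in dog 034, where B-cell and cell-cycle genes were lower. The part of those other cells in the B-cell and cell-cycle results was not tested.

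APOE, an apolipoprotein made in quantity by macrophages, went against the macrophage list in dog 034, where its change relative to the dog's median gene was -1.56 and the list mean 1.46. In each of the other 6 dogs it had the sign of the list mean. Its median was 127 FPKM (range 70.3 to 310) before and 85.1 (range 35.4 to 165) after treatment, and the change was -0.84 ± 0.31, lower in 6 of 7 dogs. In dog 037 it was higher.

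Genes of cell division were lower on average, most of all in 1 dog. All 48 named mitosis genes had a mean change below 0, with a median of -0.44, beside 57.7% of the named genes below 0. An unadjusted limma p under 0.05 was reached by 8 (16.7%), beside 3.59% of the named genes. In dog 034, 47 of the 48 were at least 2-fold lower, and in none of the other dogs was a single one. Of all genes tested, 11.5% were that much lower in dog 034. TOP2A, the topoisomerase that doxorubicin targets, was 291 FPKM before and 39.2 after treatment in dog 034. Elsewhere it was 222 and 145 in dog 003, 264 and 304 in dog 027, 38.9 and 25.7 in dog 029, 414 and 371 in dog 030, 154 and 111 in dog 033, and 183 and 140 in dog 037. Its change over the dogs was -0.69 ± 0.30.

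MKI67, the proliferation antigen Ki-67, gave a similar order, from 153 to 50.4 FPKM in dog 034 and from 136 to 71.2 in dog 003, while it stood at 92.0 and 125 in dog 037. STMN1, which destabilises microtubules, the structures that vincristine binds, had a median of 176 FPKM (range 61.2 to 212) before and 87.3 (range 39.3 to 226) after treatment, with a change of -0.78 ± 0.24 and lower values in 6 dogs. KIF4A and SPC25, a motor protein and a kinetochore subunit of mitosis, differed by -0.43 ± 0.17 and -0.55 ± 0.21. In dogs 027 and 030 the mitosis list lay near the median gene, with mean list changes of 0.19 and -0.01.

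DNA replication genes showed the same pattern with more members. Of 40 named genes, 39 had a mean change below 0, with a median of -0.38, beside 57.7% of all named genes below 0. An unadjusted limma p under 0.05 was reached by 12 (30%), beside 3.59% of the named genes. MCM5, a subunit of the replicative helicase, had a median of 30.7 FPKM (range 12.2 to 58.3) before and 20.9 (range 8.87 to 37.8) after treatment, a change of -0.67 ± 0.23. PCNA, the sliding clamp of DNA polymerase, had medians of 252 and 165 FPKM and a change of -0.55 ± 0.20. Both were lower in 6 of 7 dogs. Of 47 DNA repair and checkpoint genes, 44 had a mean change below 0, beside the same 57.7%. In limma 7 (14.9%) had an unadjusted p under 0.05, beside the same 3.59%. Among them RAD17, a checkpoint loader, was lower in all 7 dogs, with a change of -0.32 ± 0.12. BARD1, the partner of BRCA1, had a change of -0.42 ± 0.16 and was lower in 7 dogs, and in 6 on the relative scale.

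These counts moved in both directions with the animals included, and so did the share over all genes tested. Lower genes at an unadjusted limma p under 0.05 were 2.9% of all genes in the main fit. That share was 1.65% without dog 033, 4.35% without dog 027 and 2.39% without dog 034. It was 0.924% without dogs 029 and 033, and 4% without dogs 034 and 037. With 1 dog left out, the mitosis genes at an unadjusted p under 0.05 numbered between 0, without dog 033, and 23, without dog 027. They were 2 without dog 003, 029 or 034, 11 without dog 030 and 13 without dog 037. Replication genes numbered between 2, without dog 033 or 034, and 20, without dog 027, with 5 without dog 003, 6 without dog 029 or 037 and 16 without dog 030. Repair genes numbered between 3, without dog 003 or 033, and 12, without dog 037, with 4 without dog 034. With dogs 029 and 033 both left out the 3 counts were 0, 0 and 2, and with dogs 034 and 037 both left out they were 7, 5 and 5. Without dog 034 the medians of the 3 lists were -0.21, -0.22 and -0.14.

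Of 16 named genes for cyclins, their kinases and RB1, 13 had a mean change below 0, beside 57.7% of all named genes. The median of the 16 was -0.31. An unadjusted limma p under 0.05 was reached by 2 (12.5%), beside 3.59% of the named genes. With 1 dog left out there were between 2 and 6 lower genes at that level, 6 of them without dog 027 and 3 without dog 029. The 2 genes were CCNE2 and CDK2. CCNE2, a cyclin of S-phase entry, had medians of 42.9 and 27.5 FPKM and a change of -0.57 ± 0.19, and its kinase CDK2 had medians of 14.5 and 11.3 FPKM and a change of -0.35 ± 0.12. CDK2 was lower in all 7 dogs on both scales and CCNE2 in 7, and in 6 on the relative scale. CDK4, a kinase of G1, was lower in 4 dogs and higher in 3. CDKN1A, the p53 target that inhibits CDK2, was low throughout, with medians of 0.65 and 1.27 FPKM, and was higher in 6 of 7 dogs, and in 7 on the relative scale, by 0.34 ± 0.16 on average.

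Histone genes that are transcribed in S phase were grouped after 4 of them were seen among the smallest p-values, so their low values are what they were chosen for and are described without a test. The 8 with a name and a mean above 1 FPKM had a median change of -0.82. H2AC6 was 534 FPKM in the median library (range 222 to 820) before and 277 (range 64.9 to 650) after treatment, a change of -1.01 ± 0.31. H2AC17 differed by -1.04 ± 0.30 and H2BU1 by -0.70 ± 0.18. The list's mean change was -2.44 in dog 034, -1.13 in dog 037, -1.02 in dog 029, -0.72 in dog 003, -0.44 in dog 030, -0.17 in dog 033 and 0.18 in dog 027. Histone genes are near copies of each other, so how the reads were divided among them is uncertain, and the same holds for ribosomal protein genes with their pseudogenes. With 1 dog left out the median lay between -1.02 and -0.57. The histone and mitosis lists had the same sign in each B-cell dog but differed in size, at -1.13 and -0.19 in dog 037. In the T-cell dogs their median changes were 0.82 and -0.50. The paper states that poly A-RNA was isolated, and how far these histone values follow S phase was not tested.

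**Figure D4:**
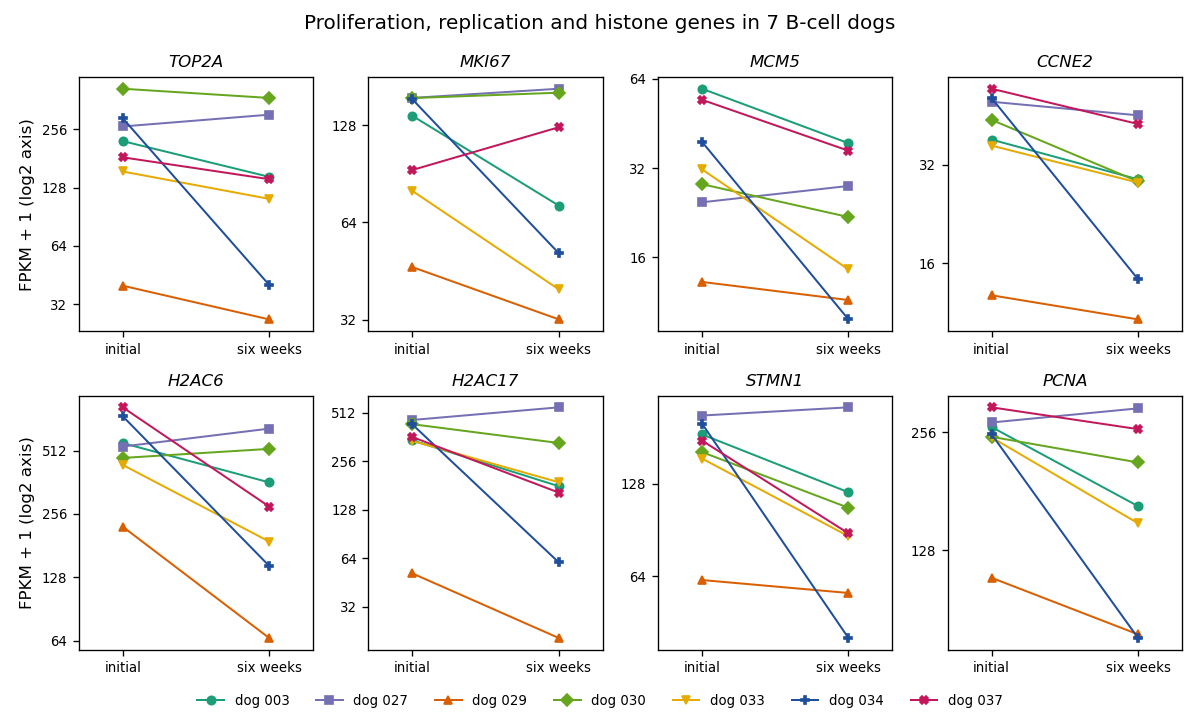
Lines join the initial and six-week FPKM + 1 of each dog on a log2 axis for TOP2A, MKI67, MCM5, CCNE2, H2AC6, H2AC17, STMN1 and PCNA. Dog 034 has the steepest downward line of TOP2A, from 291 to 39.2 FPKM, and the lines of dog 027 are nearly level.

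As a list, interferon genes were higher in dog 037. Of 10 named interferon response genes, 6 were at least 2-fold higher there, beside 10.1% of all genes tested. The list mean was 1.49 in dog 037, whereas the other dogs lay between -0.41 and 0.10. CXCL10, a chemokine induced by interferon, was 5.84 FPKM before and 141 after treatment in dog 037. In the other dogs it stood at 1.79 and 4.02 (003), 3.43 and 5.89 (027), 25.9 and 32.8 (029), 20.5 and 67.0 (030), 2.73 and 1.45 (033), and 9.46 and 12.8 (034), so that it was higher in 6 of 7. DDX58, which encodes the RNA sensor RIG-I, went from 17.9 to 78.1 FPKM in dog 037 but from 46.2 to 13.8 in dog 003 and from 63.0 to 17.6 in dog 034. TNFSF10, the death ligand TRAIL, went from 34.0 to 224 FPKM in dog 037.

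IDO1, an enzyme that breaks down tryptophan and restrains T cells, was at least 2-fold higher in 3 animals. It went from 0 to 3.80 FPKM in dog 003, from 1.47 to 29.1 in dog 034 and from 2.47 to 11.7 in dog 037, and it was 67.3 and 81.5 in dog 029. Its change over the dogs was 1.08 ± 0.46. TOX, a transcription factor of T-cell development and exhaustion, was higher in 6 of 7 dogs, and in 7 on the relative scale, by 0.60 ± 0.22. BTLA, an inhibitory receptor of B and T cells, was lower in 6 of 7, and in 5 on the relative scale, by 0.36 ± 0.14, from a median of 73.0 to 61.3 FPKM.

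Ribosomal protein genes were lower in dogs 034 and 037. Of 26 named genes, 21 were at least 2-fold lower in dog 037 and 13 in dog 034, and none was in the other 5. Over all genes tested, 4.2% were that much lower in dog 037 and 11.5% in dog 034. RPS23 had medians of 472 and 431 FPKM and a change of -0.42 ± 0.19, lower in 6 of 7 dogs and in 5 on the relative scale. Nuclear genes of oxidative phosphorylation were at least 2-fold lower in dog 034 for 15 of 27 members and in no other dog for any. NDUFA6, a subunit of complex I, differed by -0.43 ± 0.18. HIF1A, the transcription factor of the hypoxia response, had medians of 113 and 93.8 FPKM and was lower in 6 dogs, by 0.40 ± 0.14 on average.

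Transporters that expel drugs from cells were of interest for CHOP. ABCB1, which encodes P-glycoprotein and exports doxorubicin and vincristine, was 0.10 FPKM before and 1.58 after treatment in dog 003, 1.69 and 3.42 in dog 030, and 2.23 and 13 in dog 034. It was 0.58 and 0.42 in dog 027, 7.28 and 9.41 in dog 029, 0.28 and 0.16 in dog 033, and 1.48 and 1.10 in dog 037. The change was 0.55 ± 0.28 and positive in 4 of 7 dogs, and in 5 on the relative scale. The 2 dogs with the largest ABCB1 differences, 003 and 034, were also those with higher T-cell transcripts, and the part of T cells in these values was not tested. Of 9 named ABC transporters, 8 had a mean change above 0, with a median of 0.12, and 0 had an unadjusted p under 0.05 in limma. The p53 list (9 genes, median -0.07), the BCL2 family and death receptors (15 genes, median -0.02) and the glucocorticoid response (10 genes, median 0.07) lay near the median of all genes.

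The named genes with the smallest p-values included several that moved the same way in all 7 dogs. SLC37A2, a sugar phosphate exchanger, had a median of 10.04 FPKM (range 1.84 to 30.4) before and 4.55 (range 1.44 to 16.5) after treatment and was lower in each dog, with a change of -0.64 ± 0.13 and an unadjusted limma p of 6.62e-04. S1PR1, the receptor that lets lymphocytes leave the node, had the largest mean decrease of these, -1.49 ± 0.36. It went from 51.7 to 5.45 FPKM in dog 003, from 3.75 to 1.16 in dog 027 and from 17.1 to 0.99 in dog 037, with smaller differences in dogs 029 and 034. SEPTIN10, GALK1, BIN1, PHEX and ITCH were also lower in all 7 dogs on both scales. TMEM160 was lower in 7 on the deposited scale and in 6 relative to the dog's median gene, where dog 033 lay 0.32 higher.

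Fewer named genes were higher in every dog. TP63, a transcription factor of the p53 family, and DUSP4, a phosphatase that switches off MAP kinases, were higher in 7 of 7, as were TRIM36 and ERP27. TP63 had medians of 0.86 and 2.15 FPKM and a difference of 0.60 ± 0.18, and DUSP4 had medians of 0.66 and 2.45 FPKM and a difference of 0.54 ± 0.20. RGS1, a brake on chemokine receptor signals in lymphocytes, had a median of 14 FPKM (range 4.31 to 212) before and 32.4 (range 5.53 to 291) after treatment, a difference of 0.89 ± 0.28 that was positive in 6 of 7 dogs, and in 7 on the relative scale. ALOX5AP, needed for leukotriene synthesis, was higher in 6 dogs and NCAM2, a cell adhesion molecule, in 5.

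**Figure D5:**
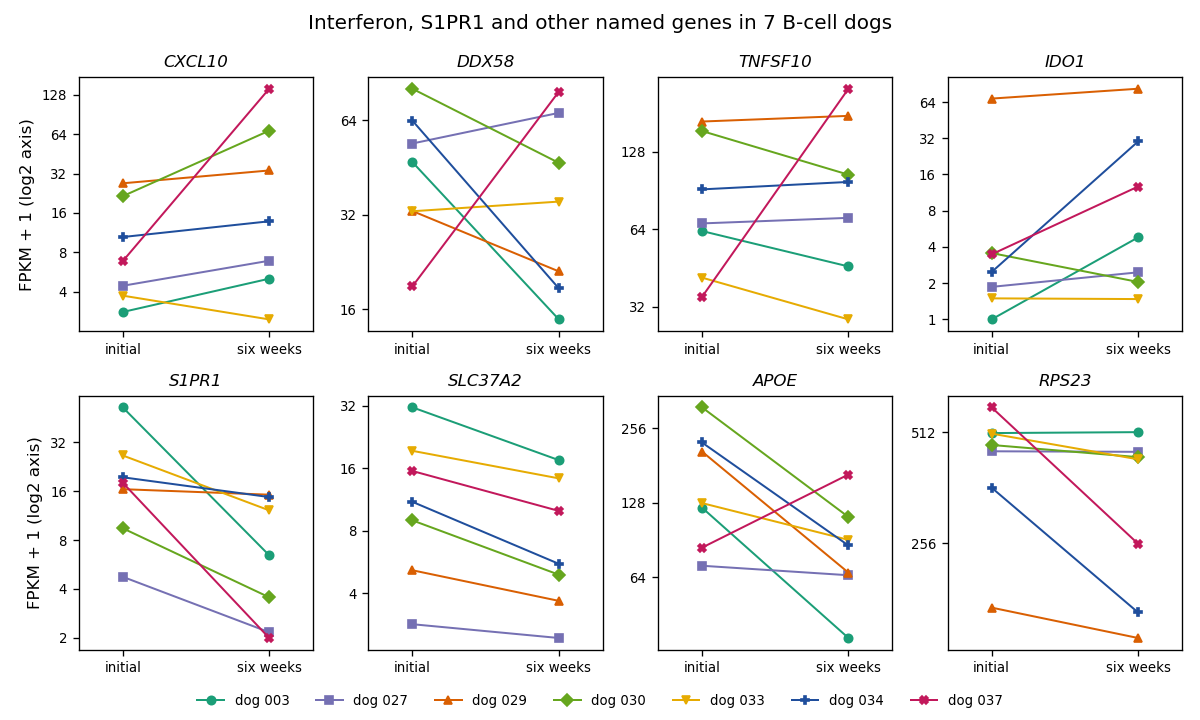
Lines join the initial and six-week FPKM + 1 of each dog on a log2 axis for CXCL10, DDX58, TNFSF10, IDO1, S1PR1, SLC37A2, APOE and RPS23. CXCL10 in dog 037 goes from 5.84 to 141 FPKM, and all 7 lines of S1PR1 and of SLC37A2 slope down.

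The change in the B-cell dogs was then compared with that in the 3 T-cell dogs and in the 4 dogs of unknown immunophenotype, in 1 limma fit over 28 libraries. For B-cell against T-cell dogs, 0 of 14254 genes (0%) had a different change at an adjusted p under 0.05, the smallest adjusted p being 0.199, and 2098 (14.7%) had an unadjusted p under 0.05. This rested on T-cell dog 028. Without it, 183 of 14286 genes had a higher and 244 a lower change in B-cell dogs at an adjusted p under 0.05, on 2 T-cell dogs. Of these, dog 036 had an FPKM total of 892182 before and 1540380 at 6 weeks, the latter from 4318394 counts. Leaving out dog 036 or 038 instead gave 0 genes. An unadjusted limma p under 0.05 was then reached by 878 of 14170 and 2298 of 14175. The part of dog 036's scale in these differences was not tested. In the limma fit without dog 028, APOE (adjusted p 0.0462) and RASGRP1 (0.0116) passed, whereas H2AC17 (0.0574) and H2AC5 (0.0742) did not. Of the 10 genes named here by smallest p in the fit with dog 028, the largest difference was that of APOE. Its mean change was -0.84 in B-cell dogs and 2.0 in T-cell dogs, where it was higher in 3 of 3. The histone genes H2AC17 and H2AC5 were higher in all 3 T-cell dogs, by 1.35 and 1.25 on average, and lower in 6 of 7 B-cell dogs, by 1.04 and 0.89. RASGRP1, an activator of RAS in lymphocytes, was lower by 1.47 in T-cell dogs and differed by -0.07 in B-cell dogs.

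Against the dogs of unknown immunophenotype, limma again called 0 of 14254 genes (0%), and 154 (1.08%) had an unadjusted p under 0.05. On the deposited scale TMEM160 and SEPTIN10 were higher in 4 of 4 and 3 of 4 of these dogs and lower in all 7 B-cell dogs, a tally that is 6 for TMEM160 on the relative scale. PNP, a purine salvage enzyme whose loss harms T cells, was higher in 4 of 4 by 0.87 and differed by -0.27 in B-cell dogs.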

How the data were processed

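The FPKM matrix deposited by the authors came from reads aligned with HISAT2 2.1.0 and assembled with StringTie 1.3.3 against CanFam3.1, per the submitters' processing notes. Counts per gene, deposited by the authors as unscaled whole numbers, served for depth and 1 alternative. In dogs 027, 029 and 030 counts and FPKM of the same gene IDs ranked genes differently (Spearman 0.09 to 0.11), so the count test used the other 4 dogs and genes with a mean count above 50. The same disagreement was present in T-cell dog 028 and in dogs 024 and 035 of unknown immunophenotype (Spearman 0.10 to 0.12). The paper describes a cluster of dogs, drawn from transcript counts, with shorter progression-free survival. Its make-up by immunophenotype equals that of the dogs with disagreeing values. The paper gives no animal numbers, so whether these are the same dogs was not tested. It compared the timepoints within clusters, whereas the 7 dogs were pooled here. FPKM was transformed as log2(FPKM + 1), which understates changes of low genes, and genes with a mean above 1 FPKM over the 14 libraries were tested with limma 3.58.1 (R 4.3.3, trended eBayes, dog as block, Benjamini-Hochberg adjustment over all genes, threshold 0.05). edgeR 4.0.16 gave the count test. Differences between immunophenotypes were contrasts of a single fit with dog as block. The pairing comes from the animal's number. A dog's initial library deviated from its group mean together with its own six-week library (r between 0.22 and 0.88) and correlated best with it in 6 of 7 dogs. The exception was dog 037 (r 0.22), and dog 034 had the next lowest value (0.30). These are also the 2 dogs with the most genes at least 2-fold higher, and the cause was not tested. Scripts were tested on simulated data. Gene lists, members and tests were chosen with earlier results of these data known. Named genes were the 15 of smallest p in each direction, up to 4 of smallest p per list and genes the study discusses, and single-dog examples were chosen after their values were seen. Symbols came from the study's result tables for 5086 of 32704 gene IDs, and the fold change and p-value columns of those tables were not used. Promoter and protein sequences were not used here, and 1 gene that the rule names is not reported here. Each dog gave 1 library per timepoint, so p-values measure the spread between dogs. Alternatives were the pseudocount, the filter, quantile normalisation, the trend, the block, a shared spread, leaving out each dog, and 3 settings added after the data were seen.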

Additional observations from a re-analysis of the deposited data

Results flagged for a closer look

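Of 87 quantities examined over the 7 dogs, 18 had a single dog whose distance from its nearest neighbour, as a share of the whole range, exceeded Dixon's 95% critical value for 7 samples. Chance alone flags about 1 in 20 such groups, and the quantities share genes and dogs. Dog 034 was the single dog in 14 of the 18.

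In dog 034 the mean log2 change was highest for macrophage and monocyte genes (1.46), neutrophil and mast cell genes (2.69), dendritic cell genes (1.93), interleukin receptors (1.35) and TGF-beta genes (0.85). It was lowest for mitosis (-2.07), DNA replication and nucleotide supply (-1.48), DNA repair and checkpoint (-1.0), MYC and partners (-1.02), nuclear oxidative phosphorylation (-1.06) and cyclins, CDKs and RB1 (-1.13). Single genes lowest in the same dog were BARD1 (-1.37), CCNE2 (-1.84) and TOP2A (-2.86), given here without subtraction of the dog's median gene.

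Dog 037 had the highest mean change of interferon response genes (1.49) and the highest total count before treatment (43413353). Dog 033 had the highest FPKM total at 6 weeks (2253170) and the lowest median change over all tested genes (-0.41).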

How the results depend on the processing

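The count of genes past an adjusted p of 0.05 in the 7 dogs stayed at 0 in each direction under all 19 alternatives, 3 of which (centred libraries, and leaving out dogs 029 and 033 or dogs 034 and 037) were chosen after seeing the data. Without the replicate block, that is without the pairing of a dog's libraries, it was also 0, with 96 genes at an unadjusted p under 0.05 against 759, and the block changed no call. That number was 2964 with no filter on low values and between 507 and 1091 with a dog left out. None of the 44 genes followed through the alternatives changed direction where it was tested. They were chosen for small p-values in these libraries or because the study discusses them, so this is not independent evidence. The filter, trend, block and shared spread settings leave a gene's mean change as it was and could not reverse it. For B-cell against T-cell dogs, a pseudocount of 0.1 gave 1 gene with a lower change, which has no name here. Leaving out each dog gave between 0 and 183 genes with a higher change and between 0 and 244 with a lower one, all of them without T-cell dog 028, and the cause was not tested. For dogs of unknown immunophenotype the count was 0 under every alternative run. Comparison groups of 3 or 4 dogs limit what these tests can show. So do count and FPKM values that disagree for 3 B-cell dogs, T-cell dog 028 and dogs 024 and 035 of unknown immunophenotype.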

Other observations

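MEI4, a gene of meiotic recombination, was 37.0 FPKM before and 0.07 after treatment in dog 027, and 0 before and 30.3 after treatment in dog 033. ACTA1, skeletal muscle actin, was 13.5 and 0.05 FPKM in dog 003 and 11.4 and 0.30 in dog 034, whereas it was 0.05 and 11.4 in dog 037. These genes were chosen after their values were seen.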
